A study of Mus musculus with 56 samples.

Results

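Mgat4c, Cdh13, Fam155a, Chl1, Padi2 and Fmo1 are 6 genes of the mouse adrenal gland that were followed here through 56 libraries of bulk RNA sequencing. They were taken by symbol, out of 55487 gene identifiers in the count tables of females and of males and 55414 in that of a surgery series, and all 6 passed the low-count filter in each of the 3 tables. The genes were chosen by their measured levels in these libraries. Mgat4c and Cdh13 were picked because conditional knockout of Znrf3 went with higher levels in female glands and lower levels in male glands. The other 4 were listed with them as oppositely changed genes, with no threshold stated. Each difference between knockout and control glands, or between castrated and sham-operated animals, is therefore given for these 6 genes as a description with no test. As a heading for the whole set, "oppositely changed" held only in part: female and male differences had opposite signs at both shared ages for Mgat4c, Cdh13, Chl1 and Fmo1, while Padi2 was clearly lower in females alone and Fam155a in males alone.

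The glands were whole adrenals of C57BL/6J mice. Conditional knockout (cKO) animals carried SF1-Cre and 2 floxed alleles of Znrf3 (a transmembrane E3 ligase that clears Frizzled receptors and so dampens Wnt signalling), and controls were littermates negative for SF1-Cre. Female glands were sampled at ages of 6, 9 and 12 weeks and male glands at ages of 4, 6 and 9 weeks, 4 animals in each of these 12 groups, because cKO glands first grow too large and later regress. In the surgery series all animals were male cKO at 9 weeks, 4 castrated at week 4 and 4 given sham surgery at week 4. Reporter alleles at R26 were mixed in that series: castrated animals comprised 1 with eYFP, 2 with mTmG and 1 with none, and sham animals 2 with eYFP, 1 with mTmG and 1 with none. SF1-Cre is active in steroidogenic cells, in the adrenal cortex and also in the gonad, so that cells of the medulla, vessels and blood in the same gland are not targeted. Female libraries held total counts of 35.7M to 51.6M, male libraries 12.4M to 35.5M and those of the surgery series 25.1M to 42.4M. Levels are given as CPM, counts scaled to a common library total with TMM factors that also correct for composition, and they are compared within a table only.

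The targeted gene, Znrf3, ran from 55.6 to 101 CPM in female cKO glands, against 31.2 to 40.4 CPM in controls, and from 34.3 to 62.1 CPM in male cKO glands, against 26.4 to 42.7 CPM in controls. A count over the whole gene does not check the deletion of a part of it. Cortex and medulla were both present in the libraries. The summed level of 7 cortex genes such as Star and Cyp11a1 ran from 52989 to 62059 CPM in cKO glands of females at 6 weeks, against 53089 to 68571 CPM in their controls. The sum of 12 genes of the chromaffin cells of the medulla, such as Chga and Th, ran from 288 to 545 CPM in those cKO glands, against 4290 to 5626 CPM in controls. All 12 were lower by edgeR's quasi-likelihood test (adjusted p under 0.05 over all genes) in cKO glands at every age of both sexes, and again in castrated against sham-operated cKO glands. In bulk tissue, fewer cells of a type and less RNA per cell cannot be told apart.

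The 6 proteins do unlike things. Mgat4c is named for its sequence kinship with the Golgi N-acetylglucosaminyltransferases IV, Mgat4a and Mgat4b, which add a branch to the N-glycans of secreted and membrane proteins. Cdh13 encodes T-cadherin, a cadherin held at the membrane by a glycolipid anchor with no cytoplasmic tail, known as a receptor for adiponectin. Chl1 is a close relative of the neural adhesion molecule L1 and acts with neuropilins in semaphorin signalling. Fam155a is an accessory subunit of the NALCN sodium leak channel, which works in a complex with Unc79 and Unc80 and sets the resting potential of excitable cells. Padi2 converts arginine residues of proteins to citrulline, and Fmo1 is a flavin-containing monooxygenase that oxidises nitrogen and sulfur atoms of small molecules.

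In the GRCm38 build, Mgat4c (ENSMUSG00000019888) spans chr10:101681487-102391469 on the plus strand. Cdh13 (ENSMUSG00000031841) spans chr8:118283733-119324921, Chl1 (ENSMUSG00000030077) chr6:103510586-103750211 and Padi2 (ENSMUSG00000028927) chr4:140906344-140952586, all on the plus strand. Fam155a (ENSMUSG00000079157) spans chr8:9205902-9771161 and Fmo1 (ENSMUSG00000040181) chr1:162829561-162866610, both on the minus strand. All are protein-coding, and Cdh13 and Fam155a lie far apart on chromosome 8. Counts are sums over each gene, and other annotated genes, mostly non-coding, overlap 5 of the 6 (all but Fmo1) and could share reads with them.

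Sequence upstream of the annotated start was read for Mgat4c and Padi2, which had the largest positive and the largest negative log2 fold change of the 6 genes in female cKO glands. The stretches below are RefSeq sequence of GRCm38.p6 on the plus strand, outside annotated exons and written 5′ to 3′, for a pair of alternative Mgat4c starts (chr10:101681237-101681486 and chr10:102158608-102158857) and for Padi2 (chr4:140906110-140906343).
Mgat4c start 1: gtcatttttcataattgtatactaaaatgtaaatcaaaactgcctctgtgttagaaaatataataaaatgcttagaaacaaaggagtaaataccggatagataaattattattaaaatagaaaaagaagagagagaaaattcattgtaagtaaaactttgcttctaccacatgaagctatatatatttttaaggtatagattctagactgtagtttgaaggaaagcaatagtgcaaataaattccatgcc
Mgat4c start 2: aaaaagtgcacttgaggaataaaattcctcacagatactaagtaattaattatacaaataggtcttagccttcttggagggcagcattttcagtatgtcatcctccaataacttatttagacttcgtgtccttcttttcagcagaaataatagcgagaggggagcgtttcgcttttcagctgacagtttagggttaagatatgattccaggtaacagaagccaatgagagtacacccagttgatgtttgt
Padi2: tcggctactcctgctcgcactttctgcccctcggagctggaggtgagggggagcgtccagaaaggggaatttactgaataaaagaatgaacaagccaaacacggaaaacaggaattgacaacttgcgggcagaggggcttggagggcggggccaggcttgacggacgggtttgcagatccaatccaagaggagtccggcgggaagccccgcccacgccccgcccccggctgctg
Of the 6 genes, 3 (Mgat4c, Chl1 and Padi2) were found in that sequence table. The share of G and C was 26.8% and 38.4% in the Mgat4c stretches and 61.1% in that of Padi2. The windows of 250 bases before each start were searched on both strands for AGAACA (the hexamer bound by androgen and glucocorticoid receptors), AAGGTCA (the element of SF1) and the TCF/LEF cores CTTTGAA and CTTTGAT. Among 32851 promoter windows of the same length, 16.1%, 4.08%, 4.46% and 3.21% held these motifs. The only match was AGAACA at Mgat4c start 3, with its first base 195 bases upstream, shown here with the motif in capitals (chr10:102158872-102158901, plus strand).
Mgat4c start 3 site: gtcggagtacacAGAACAgctgaggcagcg
The 30 bases lie wholly inside an exon annotated for another Mgat4c start, and the windows of Mgat4c start 4 and of Chl1 were exonic throughout. A match of these letters is a description and not evidence of binding.

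Mgat4c was the member with the largest difference in females, and it was higher in the cKO at all 3 ages. At 6 weeks it stood at 670, 696, 370 and 539 CPM in the 4 female cKO glands, against 14.4, 13.7, 53.1 and 7.86 CPM in the 4 controls. Every cKO gland was above every control, and control replicate 3 was far above the other 3. The log2 fold change was 4.68 ± 0.47 (approximate SE), a 25.6-fold higher level, and 5.57 when that control was left out. At 9 weeks the levels were 198, 459, 503 and 221 CPM in cKO glands, against 22.3, 17.7, 34.4 and 22 CPM in controls (log2 fold change 3.84 ± 0.46). At 12 weeks they were 192, 204, 317 and 253 CPM in cKO glands, against 18.4, 24, 16.7 and 17.6 CPM in controls (3.66 ± 0.45). The groups were widely apart at both ages.

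In males the same gene was lower in the cKO. At 4 weeks Mgat4c stood at 2.7, 0.255, 3.05 and 1.09 CPM in male cKO glands, against 4.53, 8.57, 8.03 and 7.29 CPM in controls (log2 fold change -1.96 ± 0.41). The groups did not overlap, but cKO replicate 2 rested on 5 counts. At 6 weeks the levels were 0.523, 1.11, 0.918 and 0.777 CPM in cKO glands, against 6.82, 9.56, 10.3 and 7.82 CPM in controls (-3.34 ± 0.45), and at 9 weeks 1.27, 1.19, 1.43 and 0.66 CPM, against 4.7, 7.03, 10.1 and 6.42 CPM (-2.62 ± 0.43). All male cKO glands at 6 and 9 weeks lay below all controls of their age. These cKO levels came from 7 to 30 counts per library. The approximate SEs of their fold changes were close to those in females (0.45 to 0.47).

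Castration went with the widest separation of Mgat4c in the whole series. The castrated male cKO glands held 77.5, 112, 149 and 72.3 CPM, against 2.26, 0.991, 1.11 and 0.795 CPM in sham-operated male cKO glands. The lowest castrated gland was thus far above the highest sham gland, and the log2 fold change was 6.36 ± 0.37, an 82.4-fold higher level. With the reporter allele as a covariate it was 6.33. Sham replicate 1, the highest of the 4, stood apart in its library: 9.87% of its counts were mitochondrial, against 2.41% to 3.11% in the other sham and 3.55% to 4.44% in the castrated libraries, and 93.9% of its counts fell on genes with a symbol, against at least 99.6% in the other sham libraries. Without it the log2 fold changes after castration were 6.74 for Mgat4c, 3.11 for Cdh13, 2.45 for Chl1, 1.61 for Fmo1, -0.78 for Fam155a and -1.16 for Padi2. Sham-operated glands had a mean of 1.29 ± 0.662 CPM (SD, n = 4). Unoperated male cKO glands of the same age, counted in another table and so not compared, had a mean of 1.14 ± 0.334 CPM.

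**Figure D1:**
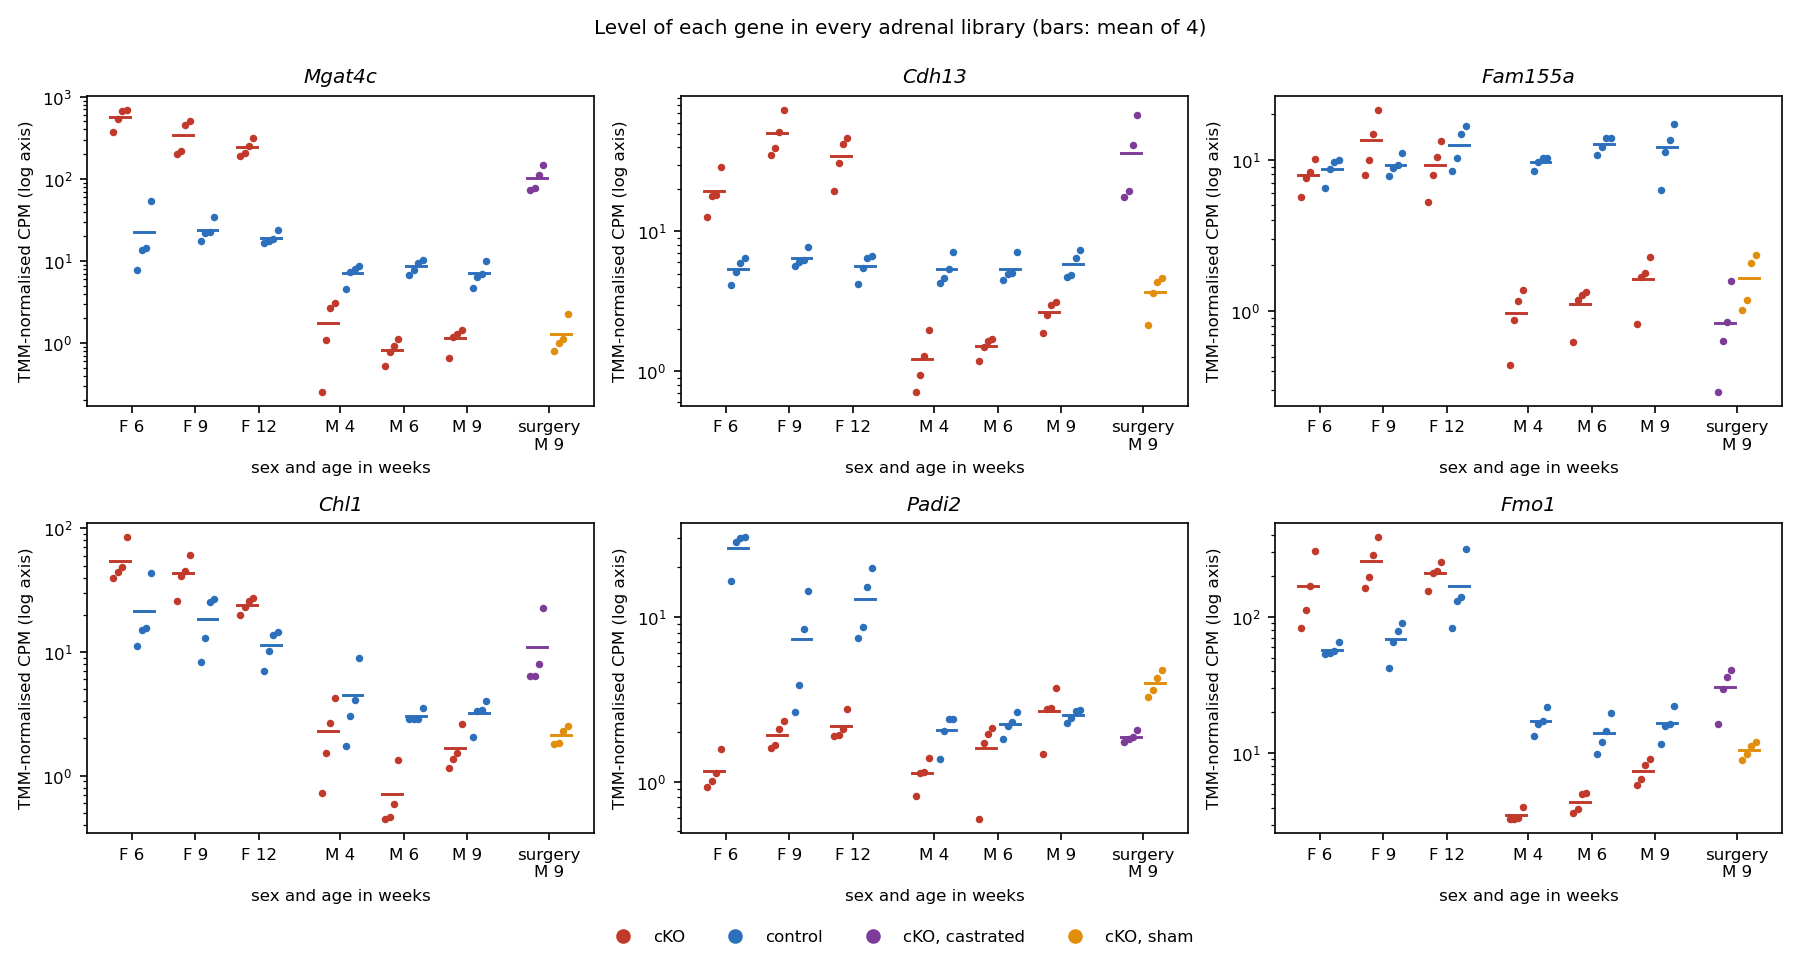
TMM-normalised CPM (log axis) of the 6 genes in each of the 56 libraries, 1 point per animal with a bar at the mean of 4, by sex and age in weeks, with cKO left of control and castrated left of sham. Mgat4c lies between 192 and 696 CPM in the 12 female cKO glands and between 0.255 and 3.05 CPM in the 12 male cKO glands, and it lies at 72.3 to 149 CPM after castration.

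Cdh13 followed the same directions with smaller differences. At 6 weeks it stood at 28.8, 18, 12.8 and 18.2 CPM in female cKO glands, against 4.13, 5.99, 5.09 and 6.46 CPM in controls (log2 fold change 1.84 ± 0.27). At 9 weeks it was at 51.5, 74.2, 35.5 and 39.6 CPM in cKO glands, against 6.27, 7.8, 6.02 and 5.69 CPM in controls (2.96 ± 0.28), and at 12 weeks at 46.3, 30.7, 19.6 and 41.9 CPM, against 4.24, 5.46, 6.64 and 6.48 CPM (2.60 ± 0.28). No female cKO gland overlapped the controls of its age, and the controls stayed within 4.13 to 6.46 CPM at 6 weeks.

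Male cKO glands held less Cdh13 than their controls. The levels were 0.948, 0.715, 1.29 and 1.97 CPM in male cKO glands at 4 weeks, against 5.35, 4.67, 7.17 and 4.3 CPM in controls (log2 fold change -2.16 ± 0.27). At 6 weeks they were 1.64, 1.5, 1.18 and 1.71 CPM in cKO glands, against 5.01, 4.5, 7.17 and 4.99 CPM in controls (-1.84 ± 0.27), and at 9 weeks 1.88, 2.55, 3.15 and 2.97 CPM, against 6.43, 4.88, 7.41 and 4.75 CPM (-1.15 ± 0.25). The groups were apart at each age, by the least at 9 weeks. Castrated glands held 67.8, 41.2, 19.5 and 17.8 CPM, against 2.15, 4.67, 3.64 and 4.37 CPM in sham glands (3.29 ± 0.44), again without overlap but with a wide spread among the castrated animals.

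Chl1 had the same signs, with more overlap. At 12 weeks it stood at 27.6, 23.1, 25.8 and 20.1 CPM in female cKO glands, against 7.02, 13.7, 10.1 and 14.4 CPM in controls, with no overlap (log2 fold change 1.09 ± 0.40). At 6 weeks the levels were 84.8, 48.2, 44.2 and 39.3 CPM in cKO glands, against 15, 15.7, 43.1 and 11.2 CPM in controls (1.35 ± 0.39). Control replicate 3, the library that was also high for Mgat4c, reached into the cKO range, and without it the log2 fold change was 1.95. At 9 weeks the groups overlapped, at 25.9 to 61.2 CPM in cKO glands and 8.22 to 26.9 CPM in controls (1.24 ± 0.39).

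In males, Chl1 was separated by genotype at 6 weeks only, with 1.34, 0.444, 0.59 and 0.466 CPM in cKO glands, against 3.51, 2.87, 2.87 and 2.89 CPM in controls (log2 fold change -2.11 ± 0.52). At 4 and 9 weeks it ran from 0.73 to 4.22 and from 1.2 to 2.62 CPM in cKO glands, against 1.73 to 8.95 and 2.05 to 4.0 CPM in controls, and the groups overlapped. After castration it stood at 22.8, 6.37, 6.41 and 7.98 CPM, against 2.5, 1.84, 2.31 and 1.81 CPM in sham glands (2.37 ± 0.42). Castrated replicate 1 was well above the other 3, and the log2 fold change was 1.72 without it, with all castrated glands still above all sham glands.

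Fmo1 was higher in female cKO glands at the first 2 ages. It stood at 305, 169, 82.2 and 112 CPM in cKO glands at 6 weeks, against 53.3, 54.7, 65.9 and 56.1 CPM in controls (log2 fold change 1.54 ± 0.38), and at 163, 283, 383 and 197 CPM at 9 weeks, against 65.2, 42.1, 89.7 and 78.9 CPM (1.89 ± 0.38). Neither pair of groups overlapped. At 12 weeks they did overlap, with 252, 215, 208 and 155 CPM in cKO glands, against 82.5, 139, 130 and 316 CPM in controls (0.31 ± 0.37). The overlap came from control replicate 4 at 316 CPM, the other controls being below every cKO gland. Over the alternative runs the log2 fold change ran from 0.09 to 0.82. Controls at that age were higher and more spread than at 6 weeks.

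Male cKO glands had less Fmo1 at every age without overlap. The ranges were 3.29 to 4.05 CPM in cKO glands at 4 weeks, against 13.4 to 22 CPM in controls, then 3.66 to 5.12 against 9.87 to 19.8 CPM at 6 weeks and 5.83 to 9.02 against 11.8 to 22.3 CPM at 9 weeks. The log2 fold changes were -2.29 ± 0.22 at 4 weeks, -1.68 ± 0.22 at 6 weeks and -1.17 ± 0.21 at 9 weeks. Castrated glands held 36.2, 40.6, 16.3 and 29.7 CPM, against 12, 11.4, 8.91 and 9.93 CPM in sham glands (1.54 ± 0.25), all castrated glands being above all sham glands. Liver also makes Fmo1 in some mammals, and 3 liver genes (Alb, Apoa1, Ttr) summed to 0.0536 to 329 CPM in female cKO glands at 12 weeks, against 0.0551 to 0.197 CPM in controls, while in cKO glands at 6 weeks they summed to 0.114 to 8.91 CPM, against 0.0453 to 0.511 CPM. Their part in the Fmo1 levels was not tested.

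Fam155a was set apart by genotype in males, while the female groups overlapped. At 4 weeks it stood at 1.38, 0.868, 1.17 and 0.438 CPM in male cKO glands, against 8.4, 10.3, 9.69 and 10.3 CPM in controls (log2 fold change -3.25 ± 0.32). At 6 weeks it was at 1.34, 1.28, 1.18 and 0.621 CPM in cKO glands, against 12.1, 13.9, 13.8 and 10.8 CPM in controls (-3.50 ± 0.32), and at 9 weeks at 1.78, 2.26, 1.67 and 0.825 CPM, against 6.27, 17.2, 13.6 and 11.2 CPM (-2.88 ± 0.30). The groups were far apart at all 3 ages.

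Female glands of both genotypes had overlapping Fam155a levels. The ranges were 5.63 to 10.1 CPM in cKO glands at 6 weeks, against 6.47 to 9.89 CPM in controls, then 7.93 to 21.4 against 7.8 to 11.1 CPM at 9 weeks and 5.25 to 13.3 against 8.43 to 16.8 CPM at 12 weeks. The log2 fold changes were -0.13 ± 0.29, 0.55 ± 0.29 and -0.44 ± 0.29 in that order of age. Castrated glands, at 1.59, 0.844, 0.633 and 0.293 CPM, overlapped sham glands, at 2.34, 1.19, 2.09 and 1.02 CPM (-0.98 ± 0.47). Fam155a and Padi2 were the members for which castration did not go with a higher level. The medulla genes were lower in both sexes: their sum ran from 784 to 1394 CPM in male cKO glands at 6 weeks, against 8277 to 16764 CPM in controls, and the part of the medulla in the Fam155a levels was not tested.

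Padi2 was the only one of the 6 genes that was lower in female cKO glands at all ages without overlap. At 6 weeks it stood at 1.01, 1.57, 0.92 and 1.13 CPM in cKO glands, against 30.0, 16.5, 28.5 and 30.5 CPM in controls (log2 fold change -4.50 ± 0.44, a 22.7-fold lower level). At 9 weeks it was at 2.08, 1.67, 1.61 and 2.33 CPM in cKO glands, against 2.65, 3.84, 14.3 and 8.49 CPM in controls (-1.93 ± 0.40), and at 12 weeks at 1.93, 2.78, 2.1 and 1.88 CPM, against 8.67, 19.8, 7.47 and 15.2 CPM (-2.56 ± 0.40). At 9 weeks the lowest control came close to the cKO glands.

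In males, Padi2 was low in both genotypes and the groups overlapped at each age. The ranges were 0.821 to 1.39 CPM in cKO glands at 4 weeks, against 1.37 to 2.39 CPM in controls, 0.59 to 2.11 against 1.81 to 2.65 CPM at 6 weeks and 1.48 to 3.69 against 2.27 to 2.72 CPM at 9 weeks. Castrated glands held 1.81, 1.87, 2.06 and 1.73 CPM, against 3.24, 4.79, 4.24 and 3.58 CPM in sham glands (-1.08 ± 0.20), and all castrated glands were below all sham glands. Genes of the X-zone, an inner cortical layer that persists in young females (Akr1c18 and Pik3c2g), moved beside Padi2 in females but not after castration. Their sum ran from 7.09 to 43.5 CPM in female cKO glands at 6 weeks, against 1498 to 3484 CPM in controls, and from 13.3 to 113 CPM in castrated glands, against 0.00 to 0.0781 CPM in sham glands. Their part in the Padi2 and Mgat4c levels was not tested.

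Counted over the 6 genes, the groups did not overlap for 3 genes higher and 1 lower in female cKO glands at 6 weeks, where 12.5% of all 18645 genes were higher and 17.9% lower without overlap. The counts were again 3 and 1 at 9 weeks, where these shares were 13.8% and 19.6%, and at 12 weeks, where they were 10.8% and 15.4%. In male cKO glands, 4 genes were lower without overlap at 4 weeks, where 12.7% of all 17086 genes were, 5 at 6 weeks, where 13.9% were, and 4 at 9 weeks, where 12.1% were. In castrated glands 4 were higher and 1 lower than in sham glands, where 21.1% of 16961 genes were higher and 22% lower. At both 6 and 9 weeks, 3 of the 6 genes (Mgat4c, Cdh13 and Fmo1) were higher without overlap in females and lower without overlap in males, as were 5 of the 16971 genes tested in both tables, or 0.0295%. As these contrasts chose the genes, nothing is read from the counts.

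**Figure D2:**
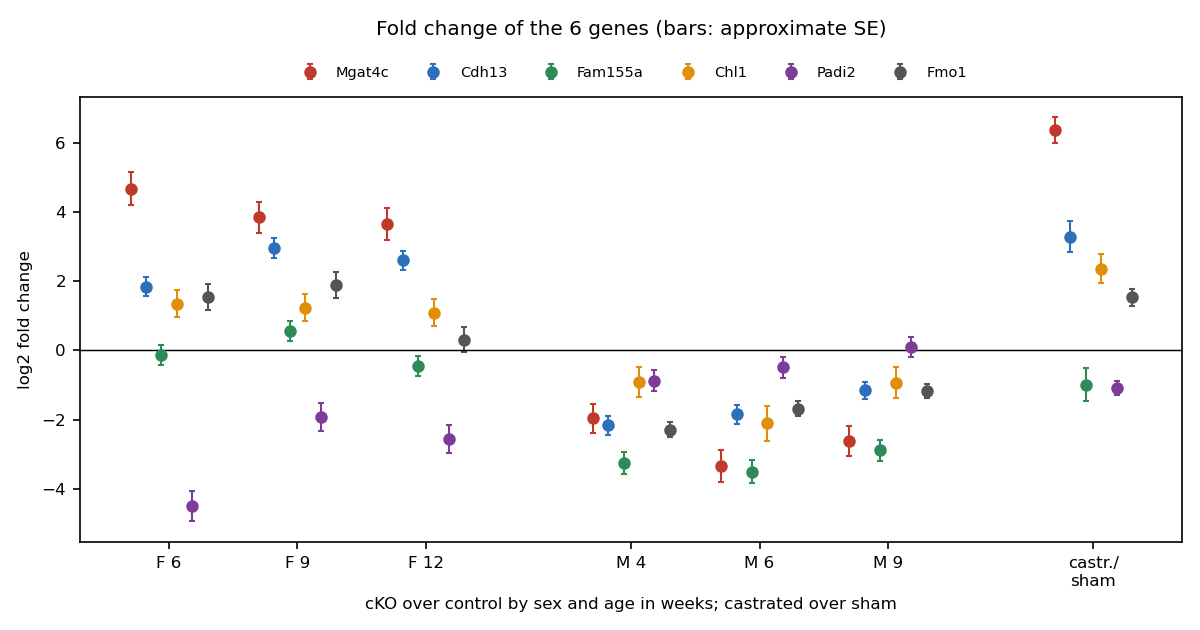
Log2 fold change of the 6 genes with bars of approximate standard error, for cKO over control by sex and age in weeks and for castrated over sham male cKO glands. Mgat4c and Cdh13 lie above 0 at all female ages, below 0 at all male ages and above 0 after castration, where Mgat4c reaches 6.36, whereas Padi2 lies at -4.50 in females at 6 weeks.

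Male libraries were split at 24 by the library number in their titles, a cut made here that the labels do not mark. Numbers above 24 belonged to 3 of 4 controls at 4 weeks, all 4 controls at 6 weeks and 2 of 4 glands of each genotype at 9 weeks. No male cKO library at 4 or 6 weeks was in that range, so at 6 weeks number range and genotype cannot be told apart within the age. At 9 weeks Mgat4c stood at 1.27 and 1.19 CPM in cKO glands against 4.70 and 7.03 CPM in controls with numbers up to 24. Above 24 it stood at 1.43 and 0.660 CPM in cKO glands against 10.1 and 6.42 CPM in controls. The genotypes did not overlap at that age, so any such split had to leave the cKO lower. It is thus no check on library number. When the range of library number entered the fit over all ages, the log2 fold changes at 6 weeks were -2.96 for Mgat4c, -1.65 for Cdh13, -3.58 for Fam155a, -1.39 for Chl1 and -1.58 for Fmo1. That of Chl1 was -0.29 at 4 weeks in that fit, against -0.91 without it. In the surgery series, numbers above 24 belonged to sham replicates 3 and 4 and to no castrated library. All castrated glands were above all sham glands for Mgat4c, Cdh13, Chl1 and Fmo1 and below them for Padi2. A comparison with sham replicates 1 and 2 alone, with numbers up to 24, could therefore not give otherwise. It is no check on library number. With the range of library number in the fit, the log2 fold changes were 6.02 for Mgat4c, 3.40 for Cdh13, 2.33 for Chl1, 1.39 for Fmo1, -1.07 for Fam155a and -1.10 for Padi2.

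Relative to exon length, which allows genes to be set beside each other, the order of the 6 differed between the genotypes. In female cKO glands at 6 weeks the mean level was 53.2 CPM per kb for Mgat4c, 26.5 for Fmo1, 4.4 for Chl1, 1.73 for Cdh13, 1.21 for Fam155a and 0.23 for Padi2. In controls it was 9.12 CPM per kb for Fmo1, 5.26 for Padi2, 2.08 for Mgat4c, 1.73 for Chl1, 1.33 for Fam155a and 0.482 for Cdh13. Mgat4c thus stood first in the cKO and below Fmo1 and Padi2 in controls, and Padi2 stood last in the cKO and next to Fmo1 in controls. Control replicate 3 lifted the means of Mgat4c and Chl1 above that of Fam155a. It held 4.97 and 3.51 CPM per kb of them, against 0.736 to 1.35 and 0.914 to 1.28 in the other controls. In male controls at 9 weeks all 6 lay between 0.26 CPM per kb for Chl1 and 2.63 for Fmo1.

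Ordered by mean level within the female table, Mgat4c ran from 569 ± 149 CPM in cKO glands at 6 weeks through 345 ± 158 at 9 weeks to 241 ± 57 at 12 weeks (SD, n = 4 each). The control groups came next at 24.1, 22.3 and 19.2 CPM for 9, 6 and 12 weeks. Control replicate 3 lifted the mean at 6 weeks, and the control medians were 22.2, 14 and 18 CPM in that order of age. The ranges of neighbours overlapped in each step except that between cKO and control. Cdh13 had another order, with 50.2 ± 17.4 CPM in cKO glands at 9 weeks, 34.6 ± 12 at 12 weeks and 19.4 ± 6.73 at 6 weeks, then controls at 6.44, 5.71 and 5.42 CPM for 9, 12 and 6 weeks. Of these neighbours too, only the lowest cKO group and the highest control group had ranges apart.

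The contrast between ages within 1 genotype was not itself used to choose the genes. There they were tested with edgeR's quasi-likelihood test, adjusted over all genes of the table. The same libraries entered the contrasts that did choose the genes, so these tests are not independent of that choice. In female cKO glands, 1 of the 6 passed between 12 and 6 weeks, where 9.93% of all genes did. That was Cdh13, whose mean was highest in between, at 50.2 ± 17.4 CPM at 9 weeks. It stood at 34.6 ± 12 CPM at 12 weeks, against 19.4 ± 6.73 CPM at 6 weeks (log2 fold change 0.83 ± 0.26, adjusted p = 0.0439, edgeR). This call did not hold when any of 6 of the 8 glands was left out (cKO replicates 1, 2 and 4 at 12 weeks or 2, 3 and 4 at 6 weeks, with an adjusted p up to 0.141) or when only these 2 groups were fitted (0.143). Over the same ages 6 of 7 zona glomerulosa genes were higher (median log2 fold change 1.42), as were 4 of 12 medulla genes (0.66) and 2 of 10 macrophage genes (0.46), and their part in the Cdh13 level was not tested.

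Mgat4c and Chl1 were lower in female cKO glands at 12 than at 6 weeks without overlap but missed the threshold. Without overlap, 13% of all genes differed between these ages. The log2 fold change was -1.24 ± 0.41 for Mgat4c (adjusted p = 0.0578, edgeR) and -1.17 ± 0.39 for Chl1 (0.060). Fitted on these groups alone, edgeR gave an adjusted p of 0.0218 for Mgat4c and 0.0288 for Chl1. Padi2 was higher at 12 weeks without overlap (0.90 ± 0.42, adjusted p = 0.188, edgeR). In female controls no member passed between 12 and 6 weeks, where 0.0912% of all genes did, while 3 members had an unadjusted p under 0.05 and DESeq2 called 1. That was Fmo1, at 82.5, 139, 130 and 316 CPM at 12 weeks, against 53.3, 54.7, 65.9 and 56.1 CPM at 6 weeks (log2 fold change 1.54 ± 0.38, adjusted p = 0.177 with edgeR and 0.0420 with DESeq2).

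In male cKO glands, 3 of the 6 genes rose between 4 and 9 weeks, where 20.8% of all genes rose. Fmo1 stood at 7.36 ± 1.47 CPM at 9 weeks, against 3.5 ± 0.365 CPM at 4 weeks (log2 fold change 1.06 ± 0.22, adjusted p = 0.000631, edgeR). Cdh13 stood at 2.64 ± 0.563 CPM, against 1.23 ± 0.547 CPM (1.14 ± 0.27, adjusted p = 0.0019, edgeR), and Padi2 at 2.69 ± 0.911 CPM, against 1.12 ± 0.232 CPM (1.26 ± 0.30, adjusted p = 0.00219, edgeR). The groups of 4 did not overlap for Fmo1 and Padi2, as for 16.2% of all genes that were higher at 9 weeks, and for Cdh13 the highest gland at 4 weeks was just above the lowest at 9 weeks. All 3 calls held under each alternative run, with a largest adjusted p of 0.0227.

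Mgat4c, Chl1 and Fam155a did not pass in male cKO glands. Their log2 fold changes at 9 against 4 weeks were -0.66 ± 0.44 (adjusted p = 0.236, edgeR), -0.49 ± 0.46 (0.42) and 0.69 ± 0.33 (0.0958). Without replicate 2 at 4 weeks, the gland with 5 counts, Mgat4c passed as lower (-1.01, adjusted p = 0.0220, edgeR). Fam155a passed as higher without replicate 1 at 4 weeks (0.95, adjusted p = 0.0492, edgeR) or without replicate 4 at 9 weeks (0.89, 0.0338). Markers of several cell types moved over the same ages. Of the macrophage genes, 6 of 10 were higher at 9 weeks, and their sum ran from 794 to 4420 CPM at 9 weeks, against 222 to 586 CPM at 4 weeks. Higher too were 5 of 7 zona glomerulosa genes (median log2 fold change 1.17), 5 of 7 capsule and fibroblast genes (0.82), 2 of 5 Schwann and sustentacular genes (1.06) and 2 of 3 T-cell genes (1.21). Of 7 endothelial genes 3 were higher, but the median of that list was -0.10, beside 0.03 over all genes. Of 7 cortex genes 5 were lower (-0.48). The part of these cells in the members' changes was not tested. In male controls no member passed between 9 and 4 weeks with edgeR, with DESeq2 or at an unadjusted p under 0.05, where 3.13% of all genes passed with edgeR.

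Animals of 1 group also differed among themselves, and these deviations were free of the group contrasts that chose the genes. For each of the 15 pairs of members, log2 CPM minus the group mean was correlated over the 56 libraries, with a permutation test within groups (two-sided, 100000 resamples, Benjamini-Hochberg adjusted over the pairs). By Pearson's r, 2 pairs passed and 6 had an unadjusted p under 0.05, and by Spearman's rho 4 pairs passed. Chl1 and Fmo1 deviated together, with Pearson's r = 0.520 (permutation p = 6e-05, adjusted 0.0009) and Spearman's rho = 0.598 (permutation p = 3e-05, adjusted 0.00045). By table, r was 0.569 (female), 0.606 (male) and 0.355 (surgery), and it was 0.504 without the 2 libraries farthest from the median of Chl1.

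Fam155a and Chl1 were the other pair, with r = 0.496 (permutation p = 0.00043, adjusted 0.00323) and rho = 0.467 (permutation p = 0.00087, adjusted 0.00653). By table, r was 0.278 (female), 0.605 (male) and 0.683 (surgery), and it was 0.450 without the 2 libraries farthest from the median of Fam155a. Over 12531 other genes, the central 90% of r with Chl1 ran from -0.351 to 0.378, so that both pairs lay above that range.

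Mgat4c and Cdh13, the pair that led the choice, did not pass (r = -0.0571, permutation p = 0.746, adjusted 0.932; rho = -0.127, permutation p = 0.428, adjusted 0.730). Among the 4 castrated glands the order of these 2 genes differed: replicate 3 had the highest Mgat4c and one of the lower Cdh13 levels. Mgat4c and Chl1 had r = 0.449 (permutation p = 0.0151, adjusted 0.0753) and rho = 0.435 (permutation p = 0.00495, adjusted 0.0248). Mgat4c and Fam155a, the other pair that passed by rho alone, had r = 0.330 (permutation p = 0.0375, adjusted 0.113) and rho = 0.399 (permutation p = 0.0104, adjusted 0.0391). For Mgat4c and Chl1, r was 0.695 in the female table, and in the surgery table it was -0.186, of the other sign. Libraries of 1 table differed in depth, and its part in these correlations was not tested.

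**Figure D3:**
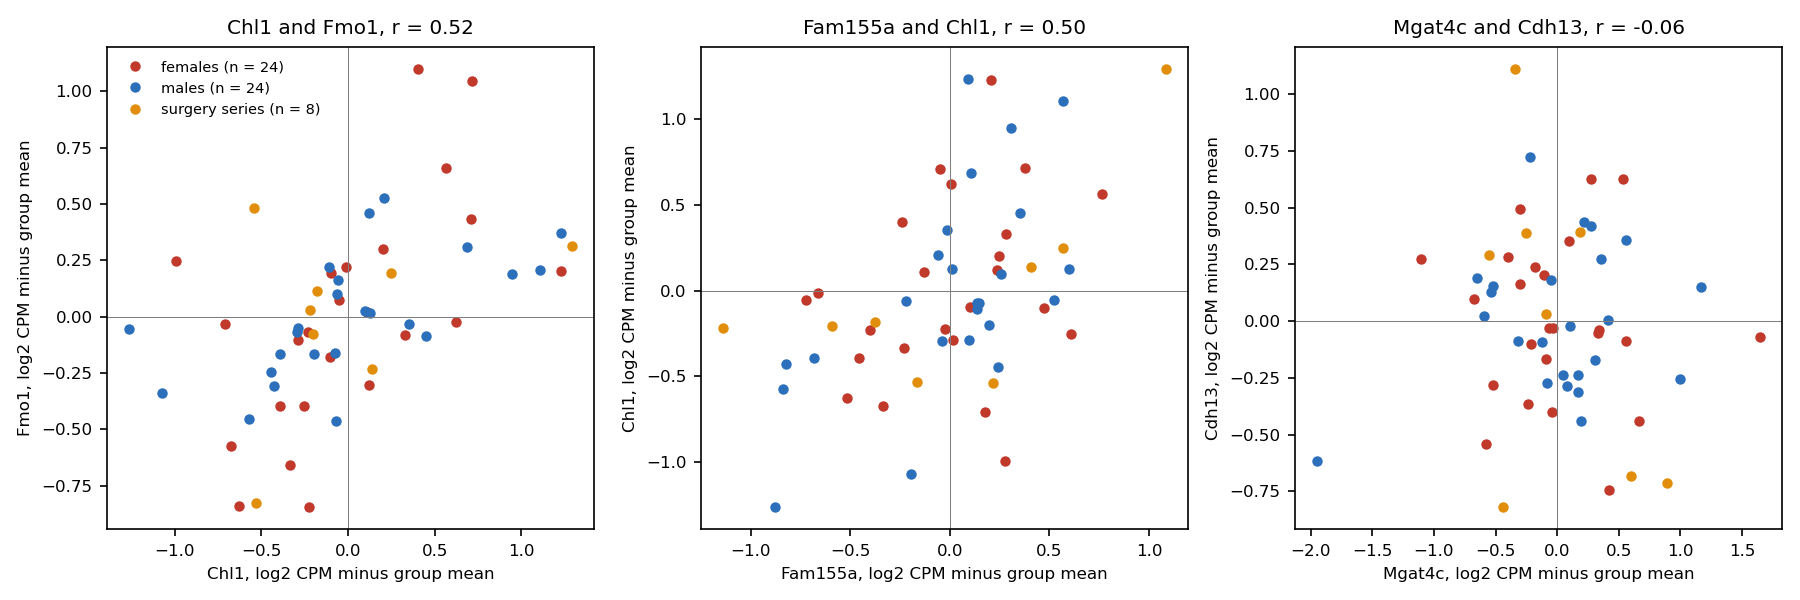
Deviation of log2 CPM from the mean of its group of 4 for 3 pairs of genes, 1 point per library (24 from females, 24 from males, 8 from the surgery series). Chl1 rises with Fmo1 and with Fam155a, at r = 0.520 and 0.496, whereas Mgat4c and Cdh13 show no common slope.

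Across all 56 libraries, log2 CPM centred on the mean of each table was used to find the genes most like each member among 12532 genes. These correlations include the group differences that chose the members and are descriptions without a test. Closest to Mgat4c were Scube1, which encodes a secreted protein with EGF-like domains (r = 0.851), Cdh13 (0.842) and C4a, a complement gene (0.832). Scube1 averaged 125 ± 19 CPM in female cKO glands at 6 weeks, against 15.3 ± 5.23 CPM in controls, and 116 ± 21.9 CPM in castrated glands, against 7.87 ± 1.92 CPM in sham glands. In males the means were closer, with 11.7 ± 2.78 CPM in cKO glands at 6 weeks, against 13.8 ± 0.989 CPM in controls.

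At the other end stood Stard5, a sterol-binding protein gene (r = -0.861), the potassium channel gene Kcnd3 (-0.846) and the metalloprotease gene Adam15 (-0.837). Stard5 averaged 10.8 ± 0.454 CPM in female cKO glands at 6 weeks, against 31.7 ± 7.11 CPM in controls, 62.6 ± 25 CPM in male cKO glands at 6 weeks, against 26.5 ± 3.68 CPM in controls, and 11 ± 2.08 CPM in castrated glands, against 49 ± 7.89 CPM in sham glands. After Mgat4c, Cdh13 was most like Fmo1 (0.788) and Fry (0.780), and Fmo1 was most like Cdh13, Fry (0.782) and D430019H16Rik (0.740). Chl1 was most like Mgat4c (0.789) and Sertad4 (0.772).

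Fam155a and Padi2 had neighbours of another kind. Fam155a went with Prune2 (r = 0.815), with Pclo (0.813), which encodes the presynaptic protein piccolo, and with Gprasp1 (0.809). Prune2, like Fam155a, was lower in male cKO glands at 6 weeks, at 6.51 ± 1.06 CPM against 24.4 ± 3.05 CPM in controls. In female cKO glands it averaged 16 ± 5.39 CPM, against 22.4 ± 5.55 CPM. The likeness was partial. After castration the mean of Prune2 was higher (15.5 ± 5.53 against 8.76 ± 3.34 CPM) and that of Fam155a lower (0.839 ± 0.548 against 1.66 ± 0.656 CPM), with overlap for both. Pclo was lower in female cKO glands at 6 weeks, at 7.17 ± 1.49 CPM against 14.7 ± 2.74 CPM in controls. Padi2 went with the alanine transaminase gene Gpt2 (0.852), the glutathione transferase gene Gsta3 (0.831) and Tbc1d8 (0.830). Gpt2 averaged 29.2 ± 2.54 CPM in female cKO glands at 6 weeks, against 219 ± 53.1 CPM in controls.

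Relatives of the 6 genes were listed by family, 44 genes in 6 lists, and tested with edgeR over all genes. In females, 1 of 32 tested relatives was higher and 20 lower in cKO glands at 6 weeks, where 14.2% of all genes were higher and 19.1% lower. At 9 weeks the counts were 1 and 19, beside 14.6% and 20% of all genes, and at 12 weeks 0 and 19, beside 9.11% and 16%. In males, 3 of 31 were higher and 17 lower at 4 weeks, beside 6.29% and 12.9% of all genes, then 4 and 15 at 6 weeks, beside 8.19% and 11.9%, and 1 and 16 at 9 weeks, beside 10.4% and 13.6%. In castrated glands 4 of 28 were higher and 16 lower than in sham glands, beside 19.8% and 23.8% of all genes. The median log2 fold change of the relatives was -0.76 in females and -0.43 in males at 6 weeks and -0.70 after castration, and that of all genes was 0.01, -0.01 and -0.01.

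Of the N-glycan branching genes beside Mgat4c, none was higher in female cKO glands. Mgat3, which adds the bisecting residue, was at 7.03 ± 2.05 CPM in cKO glands at 6 weeks, against 19.6 ± 2.12 CPM in controls (log2 fold change -1.47 ± 0.19, adjusted p = 2.14e-06, edgeR), and it was lower in castrated glands as well (-1.40 ± 0.20, 0.000324). Mgat4a fell in female cKO glands at all 3 ages (-0.82 ± 0.16 at 6 weeks, adjusted p = 0.000393, edgeR), though at 9 weeks its call was lost without any of 5 glands and without the low-count filter. Mgat4b, the more abundant isoenzyme, rose in male cKO glands at 6 weeks, to 390 ± 26.9 CPM against 252 ± 21.8 CPM in controls (0.63 ± 0.12, adjusted p = 0.000527, edgeR), and fell after castration (-0.48 ± 0.14, 0.0147), a call lost without castrated replicate 2 (0.0576) and when library number entered the fit. The list's median log2 fold change was -0.35 in females at 6 weeks over 7 tested genes, beside 0.01 over all genes.

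Among 10 tested cadherins and adiponectin receptors, none was higher in female cKO glands at any age, and 6, 5 and 6 were lower at 6, 9 and 12 weeks. Cdh6 stood at 5.24 ± 1.24 CPM in cKO glands at 6 weeks, against 37.1 ± 8.42 CPM in controls (-2.83 ± 0.23, adjusted p = 4.03e-09, edgeR). After castration 4 of the 9 tested were higher and 4 lower, beside 19.8% and 23.8% of all genes, with a median log2 fold change of -0.60. N-cadherin, encoded by Cdh2, and the related Cdh4 were lower in male cKO glands at 6 and 9 weeks and were among those higher after castration. Cdh2 fell in male cKO glands at 9 weeks, to 22.7 ± 2.4 CPM against 41.3 ± 3.85 CPM in controls (-0.87 ± 0.18, adjusted p = 0.00118, edgeR), and rose after castration, to 84.4 ± 9.55 CPM against 36.5 ± 3.27 CPM in sham glands (1.21 ± 0.12, 2.74e-05). Cdh4 fell in male cKO glands at 9 weeks (-1.53 ± 0.31, adjusted p = 0.000953, edgeR) and rose after castration (1.44 ± 0.26, 0.00136), but it was lower in female cKO glands too (-0.81 ± 0.19 at 6 weeks, 0.00184). At 6 weeks in males, both calls were lost once library number was in the fit (adjusted p = 0.0529 for Cdh2 and 0.0613 for Cdh4, edgeR). The adiponectin receptors Adipor1 and Adipor2 did not pass in females at any age, and both rose after castration (0.33 ± 0.12 and 0.67 ± 0.18), the call of Adipor1 being lost without castrated replicate 2, 3 or 4 or sham replicate 2 or 3 (adjusted p up to 0.105, edgeR).

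The channel genes beside Fam155a fell in both sexes. Nalcn, Unc79 and Unc80 were each lower in cKO glands in all 6 comparisons of genotype, under every alternative run. Unc80 stood at 1.24 ± 0.451 CPM in female cKO glands at 6 weeks, against 10.4 ± 2.26 CPM in controls (-3.07 ± 0.27, adjusted p = 1.22e-08, edgeR), and at 1.82 ± 0.394 CPM in male cKO glands, against 17.7 ± 1.84 CPM (-3.28 ± 0.31, 4.16e-08). Nalcn had a log2 fold change of -2.34 ± 0.21 in females and -2.12 ± 0.25 in males at 6 weeks. Fam155a, at -0.13 in females and -3.50 in males, thus stood beside its partner subunits in male glands and apart from them in female glands, a difference that was not tested. After castration Nalcn and Unc80 fell (-1.32 ± 0.18 and -1.59 ± 0.33), and Unc79 was at 0.11 ± 0.20 (adjusted p = 0.667, edgeR). The relative Fam155b did not pass the low-count filter.

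The close relatives of Chl1 were lower in both sexes. L1cam, Nrcam and Nfasc, adhesion molecules of axons and their nodes, were lower in cKO glands in all 6 comparisons of genotype. L1cam stood at 2.37 ± 0.416 CPM in female cKO glands at 6 weeks, against 12 ± 2.65 CPM in controls (-2.34 ± 0.21, adjusted p = 1.27e-08, edgeR), and after castration at 1.9 ± 0.665 CPM, against 6.34 ± 2.22 CPM in sham glands (-1.74 ± 0.33, 0.0019). Of the neuropilins, Nrp2 was lower in female cKO glands at all ages (-0.90 ± 0.10 at 6 weeks), Nrp2 was also lower in male cKO glands at 4 weeks (-0.62 ± 0.11), Nrp1 did not pass by genotype in either sex, and both were lower after castration (-1.07 ± 0.17 and -0.74 ± 0.14). The 12 medulla genes had a median log2 fold change of -3.35 in females and -3.19 in males at 6 weeks, and of -1.50 after castration, so they moved the same way as the channel and L1 genes. Genes of Schwann and sustentacular cells did so too, with 4 of 5 lower in females and 5 of 5 in males at 6 weeks. The part of these cells in the result was not tested.

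**Figure D4:**
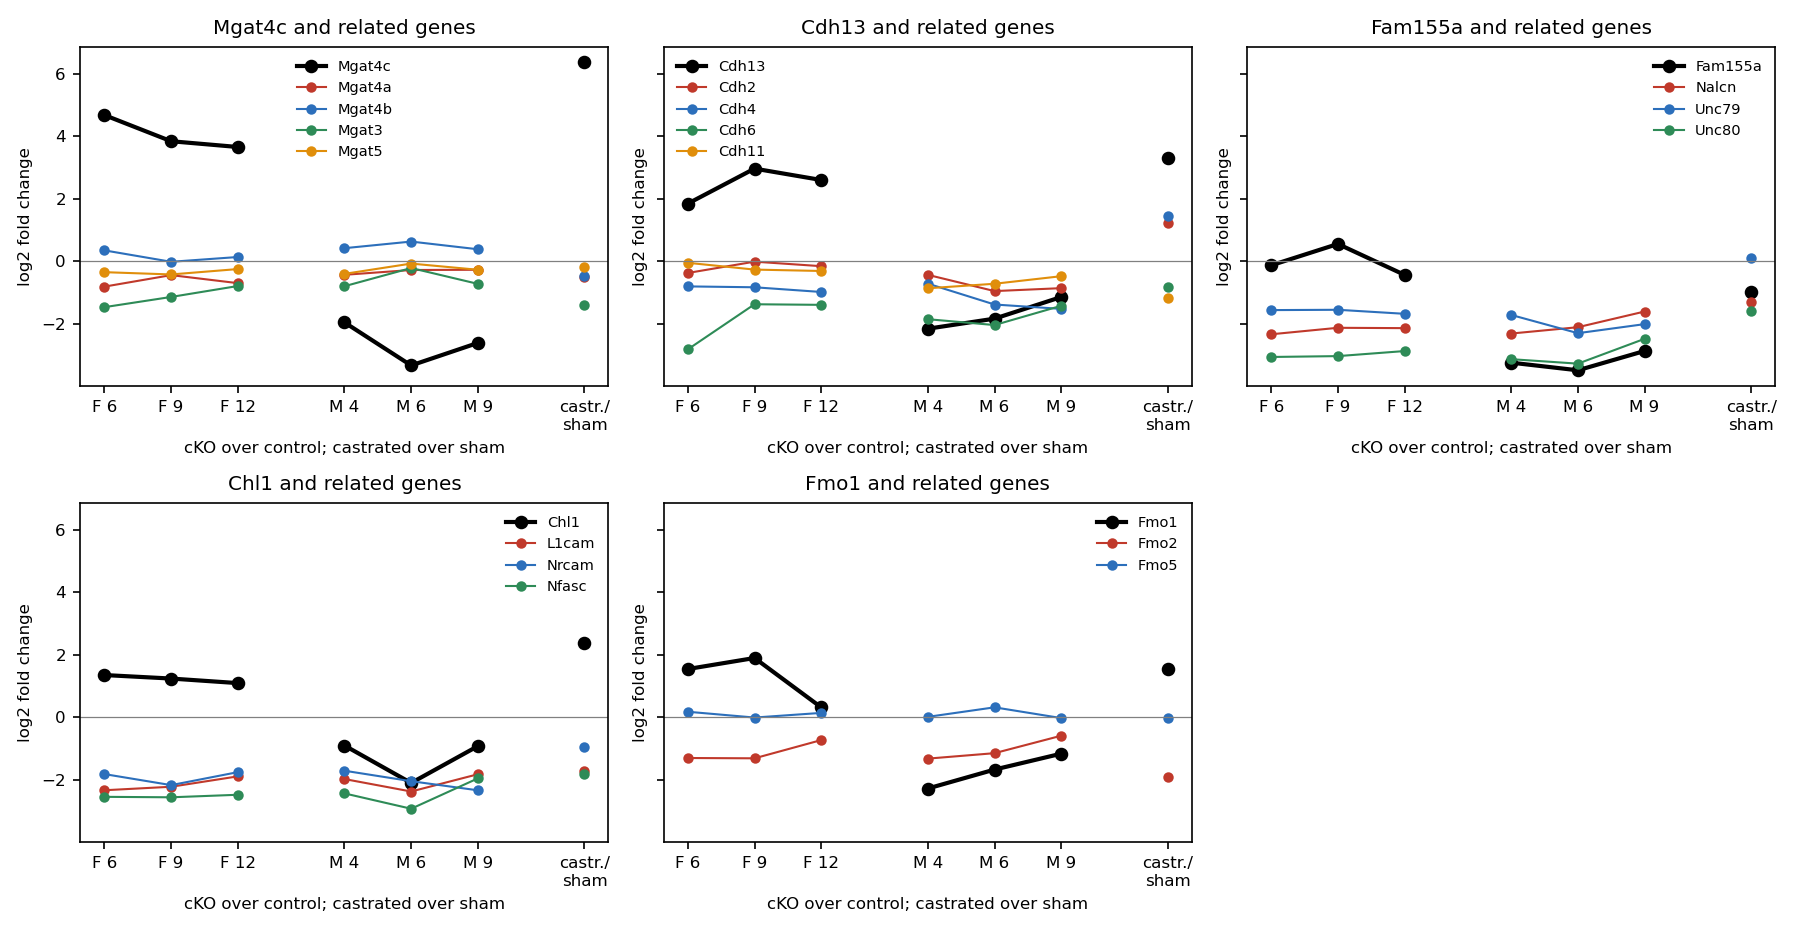
Log2 fold change of 5 members (black) and of some of their listed relatives (colours), which were not ranked by level or by change. Shown are cKO over control by sex and age in weeks and castrated over sham male cKO glands. Mgat4c, Cdh13 and Chl1 stand above their drawn relatives in females, whereas Fam155a lies with Nalcn, Unc79 and Unc80 in males only.

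The other flavin-containing monooxygenases moved in several ways. Fmo2 was lower in female cKO glands at 6 weeks, at 11.3 ± 3.67 CPM against 27.9 ± 8.63 CPM in controls (-1.31 ± 0.27, adjusted p = 0.000662, edgeR), and in castrated glands, at 11.8 ± 0.886 CPM against 44.8 ± 11.2 CPM in sham glands (-1.92 ± 0.18, 2.41e-05). In male cKO glands it was lower at 4 weeks (-1.33 ± 0.24, adjusted p = 0.00026, edgeR). Fmo4 was the sole relative higher in female cKO glands, at 3.71 ± 1.84 CPM at 9 weeks, against 1.39 ± 0.777 CPM in controls (1.43 ± 0.41, adjusted p = 0.00861, edgeR), but this call was lost without cKO replicate 2 (0.0539), and its call at 6 weeks was lost without any of 5 of the 8 glands. Fmo5 did not pass in females (0.17 ± 0.08 at 6 weeks, 0.106). The deiminases Padi1, Padi3, Padi4 and Padi6 were under the low-count filter in all 3 tables, so Padi2 was the one deiminase gene with enough counts to be tested.

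Between 4 and 9 weeks in male cKO glands, 8 of 31 relatives rose and 7 fell, where 20.8% of all genes rose and 20.9% fell. Fmo2 rose like Fmo1, to 30.5 ± 10.5 CPM at 9 weeks, against 16.1 ± 3.56 CPM at 4 weeks (log2 fold change 0.92 ± 0.24, adjusted p = 0.00373, edgeR). Fmo5 rose in male cKO glands (0.42 ± 0.11, adjusted p = 0.00377, edgeR) and in male controls (0.46 ± 0.11, 0.0205). Both adiponectin receptor genes fell in male cKO glands over this time (Adipor1 -0.32 ± 0.07, adjusted p = 0.00049, and Adipor2 -0.40 ± 0.10, 0.00323, edgeR), while Cdh13 rose.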

How the data were processed

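Bulk RNA sequencing of whole adrenal glands was available as 3 deposited tables of raw gene-level counts, in whole numbers that the authors had not normalised. Per the labels' protocols, poly(A) RNA went into a strand-preserving (directional) library kit. The build was GRCm38, and the tools named in the submitters' processing notes are cutadapt 1.16, featureCounts, STAR 2.7.6a, DESeq2 1.30.1 and RSEM 1.6.3. The version of featureCounts and the handling of reads in overlapping genes are not given in the sources used here. Groups held 4 independent mice each. Sham animals carry a single replicate number in the labels, and their numbers here follow accession order and name a library only. No column was left without a sample.

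The analysis used edgeR 4.0.16 under R 4.3.3: filterByExpr at a minimum count of 10, TMM scaling and the quasi-likelihood test, with 1 fit per table and Benjamini-Hochberg adjustment over all genes at 0.05. The filter left 18645, 17086 and 16961 genes. Standard errors are approximate and derive from each F statistic. Correlations used log2 CPM with a prior count of 2. Names, positions and exon lengths came from GENCODE M21, sequences from RefSeq GRCm38.p6. The members and gene lists were chosen with earlier results of these data known. The genes named are the 6 members, their family lists, and for each the 3 genes most like it (for Mgat4c also the 3 least like it); 1 gene under this rule is not reported here. Of the other cell types listed, adipose and T-cell genes are given with the further lists in the closing section. Alternatives were DESeq2 1.42.0, other scaling, filters and samples in the fit, a replicate block, library number, reporter allele and leaving out each library. The fit was tested on simulated counts.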

Additional observations from a re-analysis of the deposited data

Results flagged for a closer look

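Single libraries stood apart from the other 3 of their group in 7 of 84 groups checked (6 genes in 14 groups) by Dixon's ratio of gap to range. Chance alone gives about 1 in 20 groups, and why these libraries stood apart was not tested. In female controls at 6 weeks, replicate 3 held 43.1 CPM of Chl1, against 11.2 to 15.7 CPM in the others, and 53.1 CPM of Mgat4c, against 7.86 to 14.4 CPM. In the same group replicate 2 held 16.5 CPM of Padi2, against 28.5 to 30.5 CPM. Castrated replicate 1 held 22.8 CPM of Chl1, against 6.37 to 7.98 CPM. Male cKO replicate 1 at 6 weeks held 1.34 CPM of Chl1, against 0.444 to 0.590 CPM, and male control replicate 1 at 6 weeks 3.51 CPM, against 2.87 to 2.89 CPM. Male cKO replicate 1 at 4 weeks held 4.05 CPM of Fmo1, against 3.29 to 3.36 CPM.

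At both ages shared by the sexes, every cKO gland lay above every control in females and below every control in males for 3 of the 6 genes, as for 5 of the 16971 genes tested in both tables (0.0295%). The difference between the sexes was not tested, since these contrasts chose the genes and the sexes lie in different tables. For Mgat4c the log2 fold change was 4.68 in females and -3.34 in males at 6 weeks, and 3.84 and -2.62 at 9 weeks. For Cdh13 it was 1.84 in females and -1.84 in males at 6 weeks, and 2.96 and -1.15 at 9 weeks. For Fmo1 it was 1.54 in females and -1.68 in males at 6 weeks, and 1.89 and -1.17 at 9 weeks.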

How the results depend on the processing

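Counts of genes called moved by over 1.5 times in some settings. In female cKO glands, 12 against 6 weeks, 1852 genes became 544 with only the groups compared, and 1036 to 1603 when 1 gland was left out, the lowest without replicate 2 at 12 weeks. In female controls, 17 genes became 4 with CPM of at least 5 in 4 libraries, 101 with DESeq2, 2 with only the groups compared, 8 with the replicate block and 0 to 20 when 1 gland was left out, the lowest without replicate 4 at 6 weeks. In male controls, 9 against 4 weeks, 535 genes became 932 with DESeq2 and 150 to 663 when 1 gland was left out, the lowest without replicate 2 at 9 weeks and 159 without replicate 2 at 4 weeks. With library number in the fit, 3275 genes in males at 4 weeks became 1701 and 3435 at 6 weeks became 1613. In the surgery series, library number in the fit was an alternative added after seeing the data. The 2 pairs of members became 0 in the surgery series alone. The causes were not tested.

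Replicate numbers did not pair the samples: deviations of same-numbered glands correlated above 0.1 in 4 of 40 pairs (range -0.253 to 0.174), and 9 of 40 comparisons gave the own number as best. Under the replicate block, Mgat4c in female cKO glands passed as lower at 12 weeks (-1.32, adjusted p = 0.0318). No paired analysis was possible in the surgery series because the sham animals share a single number.

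Directions turned for Padi2 in males at 9 weeks, whose log2 fold change by genotype was 0.089, and -0.081 without cKO replicate 4, and for changes with age that did not pass. Mgat4c in male controls, at -0.0040, was 0.030 at CPM 5, 0.017 with DESeq2, 0.019 without a filter, 0.020 with relative log expression scaling, 0.095 with library number, 0.0069 with only the groups compared and -0.20 to 0.18 when 1 gland was left out. In the other cases leaving out 1 gland turned the sign: Mgat4c in female controls (-0.50 to 0.68), Cdh13 in female controls (-0.034 to 0.19), Chl1 in male cKO glands (-0.79 to 0.023) and male controls (-0.71 to 0.14), Fam155a in female cKO glands (-0.0087 to 0.42) and Fmo1 in male controls (-0.21 to 0.11). Genotype differences of Mgat4c, Cdh13, Padi2 in females and Fam155a in males kept their sign in every setting. Male cKO levels of Mgat4c, Fam155a and Chl1 rest on few counts, which limits their precision.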

Other observations

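Other cell types moved between the groups as well. Macrophage genes summed to 370 to 597 CPM in castrated glands, against 1270 to 2590 CPM in sham glands (8 of 10 lower, edgeR), and to 837 to 1474 CPM in female cKO glands at 12 weeks, against 305 to 466 CPM in controls (5 of 10 higher). The 7 zona glomerulosa genes were all lower in castrated glands, at 564 to 750 CPM against 1419 to 2306 CPM. Of 7 cortex genes, 6 were higher after castration, at 67939 to 78271 CPM against 25567 to 37653 CPM in sham glands. Endothelial genes summed to 794 to 878 CPM in castrated glands, against 1006 to 1301 CPM, and capsule and fibroblast genes to 232 to 344 CPM, against 658 to 775 CPM. Adipose genes summed to 202 to 288 CPM, against 266 to 337 CPM, and T-cell genes to 2.73 to 4.95 CPM, against 3.91 to 8.58 CPM. The part of these shifts in the levels of the 6 genes was not tested. In female cKO glands the cortex sum overlapped that of controls at each age, while 2 of 7 cortex genes were higher at each age (edgeR). At 6 and 9 weeks 1 of 7 was lower, and the part of the cortex in the Mgat4c levels was not tested.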
